A study of Mus musculus with 4 samples.

Results

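The Rab GTPases were followed through a transcriptional shut-off in RAW264.7 cells, a mouse macrophage-like line. Members were all genes whose symbol is Rab followed by a number, with at most 1 letter and 1 further digit after it, and 59 of the 41324 genes in the table met this rule. Cells were either untreated (0 h) or exposed for 2, 4 or 6 h to 10 µg/ml actinomycin D, which intercalates into DNA and stops RNA synthesis, so that mRNA half-lives could be estimated. Each time was 1 library of a single cell line with no replicate, and nothing in the labels tells if separate cultures were used. The labels give cytoplasmic RNA, removal of ribosomal RNA and a directional library kit.

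Rab proteins are small GTPases that act as switches on membranes: bound to GTP and anchored by lipid tails, they recruit the effectors that move, tether and fuse vesicles. Exchange factors load them with GTP, GTPase-activating proteins switch them off, and GDP dissociation inhibitors carry them back through the cytosol. Each Rab marks its own compartment. In macrophages, Rab5 proteins act on early phagosomes, and Rab7 acts on the late phagosomes and lysosomes in which engulfed particles are broken down.

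The 4 libraries held between 12762100 counts (6 h) and 70289647 counts (4 h). Of 8 macrophage markers, 7 reached at least 1 CPM (counts of a gene scaled to the library size), with summed levels of 3540 to 4947 CPM. Of 13 markers of T cells, B cells, fibroblasts, epithelium and endothelium, none reached 1 CPM, and Cd3e, Ms4a1, Col3a1, Epcam, Krt8 and Cdh1 stood at 0 in every library. Rab genes together took 76896, 115959, 210133 and 33728 counts at 0, 2, 4 and 6 h. After scaling of the libraries with TMM, which sets the typical gene to no change, their sum was 2529, 2682, 2771 and 2761 CPM.

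Of the 59 Rab genes, 39 passed a mean of at least 1 CPM and were tested. A further 12 had counts but lay under this level, and 8 had a count of 0 in all libraries: Rab3c, Rab9b, Rab17, Rab27b, Rab36, Rab38, Rab39b and Rab44. A count of 0 allows up to 3 counts per library. Among the 12, Rab3a had 89, 21, 22 and 6 counts at 0, 2, 4 and 6 h, and Rab39 had 33, 18, 50 and 6. The other 10 (Rab3b, Rab6b, Rab15, Rab19, Rab25, Rab30, Rab33a, Rab37, Rab40b and Rab42) had at most 33 counts in any library. Among the tested members, Rab20 was above 1 CPM in the untreated library alone, and Rab26 was below 1 CPM there and above it in the treated libraries. Both passed the filter through the libraries in which they were high, so their slopes and bends are descriptions and support no call.

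Most Rab mRNAs stayed close to the typical gene through 6 h, 6 members fell relative to it, and 3 abundant members rose. Rab23, Rab9, Rab33b, Rab35, Rab22a and Rab12 fell along the course, and Rab1b, Rab7 and Rab31 rose (edgeR quasi-likelihood test of a slope over the 4 libraries, adjusted p under 0.05 over all genes). The 6 falls were 15.4% of the 39 tested members, against 17.2% of all 10837 genes tested, and the 3 rises were 7.69%, against 8.63%, so neither share stood far from the background. At an unadjusted p under 0.05 there were 18 members (46.2%, against 47.3% of all genes). The DESeq2 Wald test gave 9 falls and 10 rises (23.1% and 25.6%, against 25.9% and 21.7% of all genes), adding Rab8a, Rab20 and Rab40c to the falls and Rab1a, Rab5c, Rab11a, Rab18, Rab26, Rab28 and Rab34 to the rises. With the deposited divisors 19 members fell and 0 rose by edgeR (48.7% fell, against 46.5% of all genes, of which 0.72% rose). Among these falls were Rab1a, Rab5c and Rab11a, which the DESeq2 Wald test called as rises. With ribosomal protein scaling 8 fell and 0 rose (20.5% fell, against 23.9% of all genes, of which 1.25% rose), and with total counts 5 fell and 1 rose (12.8% and 2.56%, against 12.5% and 1.91%). The counts by the DESeq2 Wald test and with total counts hold Rab20 and Rab26, which are descriptions only. In bulk RNA, fewer cells and less RNA per cell cannot be told apart. The median slope was 0.023 log2 per h over the Rab genes and 0.0014 over all genes, and 25 of 39 members (64.1%) had a slope above 0, against 50.6% of all genes. The Rab median turned to −0.035 with scaling on ribosomal protein mRNAs and to −0.064 with the divisors behind the deposited normalized values. These scalings also took the median of all genes to −0.057 and −0.086. A scaling moves all slopes by about the same amount, so it leaves the gap between the medians nearly unchanged and does not test it. Without the untreated library the medians were 0.0073 for the Rab genes and 0.00038 over all genes, with 22 of 39 Rab slopes above 0.

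**Figure D1:**
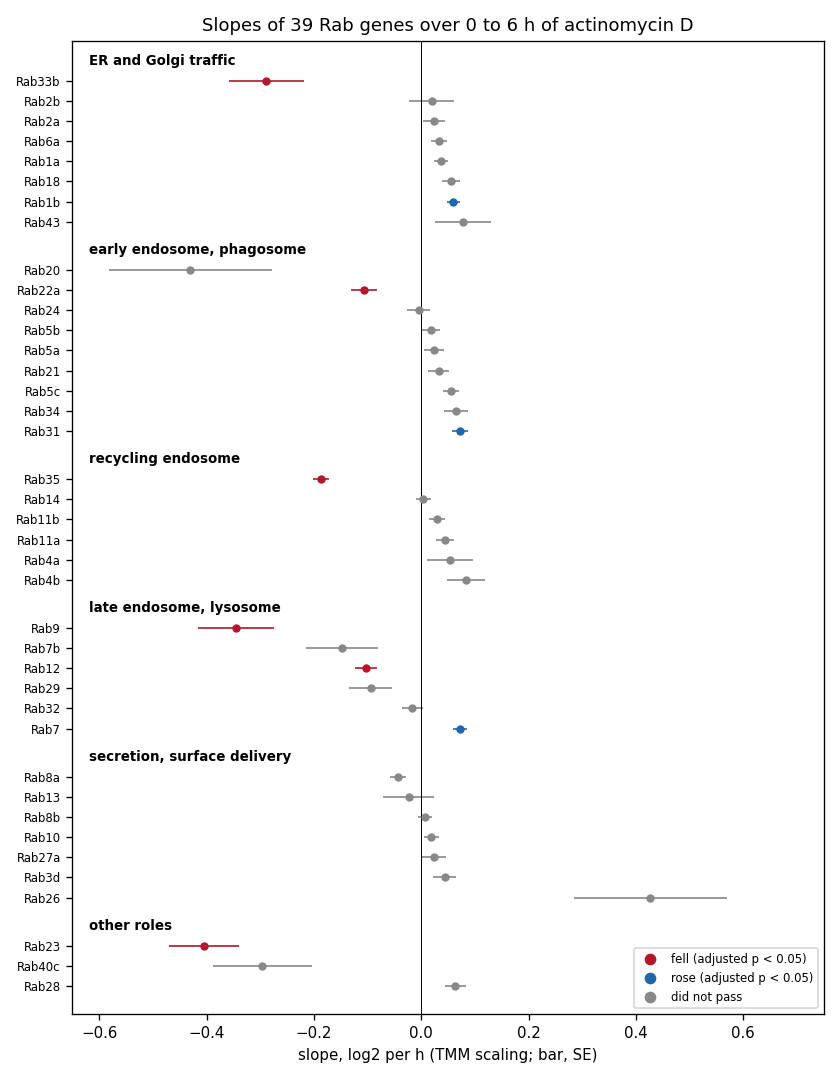
Slope of each of the 39 tested Rab genes in log2 per h (horizontal axis, bars are SE), grouped by the compartment the protein serves. The 6 red genes fell and the 3 blue genes rose, and most of the grey genes lie close to 0, apart from Rab20 and Rab40c on the left and Rab26 on the right.

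More than 1.5-fold below untreated were 6 members at 2 h, 8 at 4 h and 10 at 6 h, which is 15.4%, 20.5% and 25.6% of those tested. The same shares over all genes were 17.3%, 24% and 25.6%. More than 1.5-fold above untreated there was 1 member, Rab26, at each time, where all genes gave 2.48%, 3.86% and 7.49%. With 1 library per time these counts carry no test. Bends, meaning a change of slope along the course, passed upward (an early drop that then levelled) for 5 members, Rab20, Rab23, Rab33b, Rab40c and Rab7b, which is 12.8% against 19% of all genes. Among the 5, Rab20 is a description only, as it passed the filter through the untreated library. Bends passed downward for 3, Rab2a, Rab5c and Rab31, which is 7.69% against 12.1%. The downward count was 24 with total counts and 0 with ribosomal protein scaling or the deposited divisors. Shares of bends over all genes under these scalings were not worked out.

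The 3′ UTR, where many elements that control mRNA decay lie, was searched for short motifs on the mRNA strand only in 1 principal GENCODE transcript per gene. The AU-rich core TATTTAT was present in 16 of 39 Rab 3′ UTRs (41.0%) and in 28.6% of the 9567 tested genes with a 3′ UTR, and Rab 3′ UTRs were longer, with a median of 1949 bases against 1026. It occurred in 4 of the 6 Rab genes that fell, 0 of the 3 that rose and 12 of the 30 not called (40.0%). Over all genes it occurred in 29.5% of those that fell, 31.4% of those that rose and 28.1% of those not called. The longer TTATTTATT, which contains the core, was found in 3 of 39 (7.69%, against 7.50% of all genes) and in none of the 9 called members. The Pumilio motif TGTANATA was present in 15 of 39 (38.5%, against 25.3%), among them 3 that fell and Rab31. Over all genes it was in 32.4% of those that fell and 24.2% of those that rose. Rab9, which fell, held none of these, and neither did Rab1b and Rab7, which rose.
All such sites in the 6 genes that fell, and the 1 in Rab31, follow on the build mm10. The 3 rising genes held no TATTTAT, so its context cannot be compared between falling and rising genes. Capitals mark the motif, with 9 bases on either side where the UTR reaches that far.
Rab23 (chr1:33740089-33740113, plus strand, 706 bases into the UTR): tcaaatttgTATTTATgacatcttg
Rab33b (chr3:51495446-51495470, plus strand): tcattttagTATTTATtaatcaaaa
Rab22a (chr2:173701917-173701941, plus strand): tgtagtctaTATTTATgagaccatt
Rab12 (chr17:66495245-66495269, minus strand): ccttttcttTATTTATgggctttcc
Rab12 (chr17:66494512-66494535, minus strand, at the end of the UTR): aaaattttgTATTTATgaatgaca
Rab35 (chr5:115646021-115646046, plus strand): taaccagttTGTACATAgtgtatatt
Rab22a (chr2:173701952-173701977, plus strand): tataaattaTGTAAATAcattaataa
Rab22a (chr2:173707275-173707300, plus strand): aaagaatgaTGTAAATAttttgttaa
Rab12 (chr17:66495554-66495579, minus strand): acactaactTGTAAATAtgcaaatat
Rab31 (chr17:65652429-65652454, minus strand): ttgtatatgTGTAAATAtggttttta
A match describes letters in the annotated UTR and not a bound site. Across the 39 Rab genes the Spearman correlation of slope with 3′ UTR length was −0.096 and with GC content at the last base of codons −0.027.

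Among the Rabs of the endoplasmic reticulum and Golgi, 1 of 8 tested members fell (12.5%), 1 rose (12.5%) and 6 did not pass. The shares over all genes were 17.2% falls and 8.63% rises. Rab33b, a Golgi Rab that also takes part in autophagy, had 12.5, 4.90, 4.18 and 3.68 CPM at 0, 2, 4 and 6 h. Most of its loss lay before 2 h, where it stood at 39.1% of untreated (counting 95% interval 32.9 to 46.4%), and it fell overall with a slope of −0.29 ± 0.070 log2 per h (SE, edgeR adjusted p = 0.0476). Its call was lost with ribosomal protein scaling and without the 4 h library, and without the untreated library the slope was −0.11 and did not pass either. Rab1b, which with Rab1a drives traffic from the endoplasmic reticulum to the Golgi, had 196, 217, 241 and 250 CPM. Each later library lay above the one before, and the slope was 0.060 ± 0.012 (edgeR adjusted p = 0.0375). The related Rab1a had 179, 198, 208 and 208 CPM and did not pass (edgeR adjusted p = 0.102, and 0.0124 as a rise by the DESeq2 Wald test). With the deposited divisors Rab1a passed as a fall (slope −0.050, edgeR adjusted p = 0.0231). The remaining tested members, Rab2a, Rab2b, Rab6a, Rab18 and Rab43, had slopes from 0.019 to 0.078, and Rab6a, which acts in retrograde transport at the Golgi, had 83.4, 95.2, 95.5 and 97.2 CPM.

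Among the Rabs of early endosomes and phagosomes, 1 of 9 fell (11.1%), 1 rose (11.1%) and 7 did not pass. All genes gave 17.2% falls and 8.63% rises. Rab31, a relative of Rab5 at the trans-Golgi and early endosome, had the highest mean CPM of the family, with 248, 295, 322 and 336 CPM. It rose to 135% of untreated at 6 h (interval 130 to 141%; slope 0.072 ± 0.015, edgeR adjusted p = 0.0386), with a slope of 0.047 without the untreated library. Rab22a, its closest relative and an endosomal Rab, moved the other way, with 57.1, 46.1, 36.7 and 37.4 CPM. It fell to 65.5% of untreated (interval 59.0 to 72.7%; slope −0.11 ± 0.024, edgeR adjusted p = 0.0423), and missed the test with total counts or without the 2 or the 4 h library.

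The Rab5 proteins, which organise early endosomes and young phagosomes, gave 0 calls among 3 by edgeR, with 1 (Rab5c) at an unadjusted p under 0.05, which the DESeq2 Wald test called as a rise. Rab5c had 205, 237, 254 and 258 CPM (slope 0.055 ± 0.015, edgeR adjusted p = 0.0598), and it passed as a rise without the 6 h library. With the deposited divisors Rab5c passed as a fall (slope −0.032, edgeR adjusted p = 0.0409), and with ribosomal protein scaling its slope was −0.0027. Rab5a had 33.7, 36.7, 38.3 and 36.9 CPM, and Rab5b had 29.7, 29.6, 30.9 and 31.8 CPM. Rab20, a Rab linked to phagosome maturation, had 5.26, 0.809, 0.963 and 0.982 CPM. It stood at 15.4% of untreated at 2 h (interval 10.4 to 22.3%) and 18.7% at 6 h (9.45 to 33.5%, from 12 counts against 160). Its slope of −0.43 was the lowest of the tested members and rested on the untreated library, without which it was 0.083. The others, Rab21, Rab24 and Rab34, had slopes of 0.033, −0.0049 and 0.064.

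Of 6 Rabs of recycling endosomes 1 fell (16.7%, against 17.2% of all genes) and 5 did not pass. Rab35, which returns cargo from endosomes to the plasma membrane, had 106, 77.7, 60.3 and 48.5 CPM. It dropped at every step, to 45.9% of untreated at 6 h (interval 42.0 to 50.1%), with a slope of −0.19 ± 0.014 (edgeR adjusted p = 0.0145). It was the only Rab gene that passed without the 4 h library, and it missed the test with total counts. Rab14, which sorts between the Golgi and endosomes, had 192, 207, 203 and 196 CPM (slope 0.0037, edgeR adjusted p = 0.849; −0.083 with the deposited divisors and −0.054 with ribosomal protein scaling, past the test in both). Rab11a and Rab11b, the Rabs of the recycling compartment, had slopes of 0.044 and 0.030. Rab4a and Rab4b, which act in fast recycling, had 0.053 and 0.083.

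**Figure D2:**
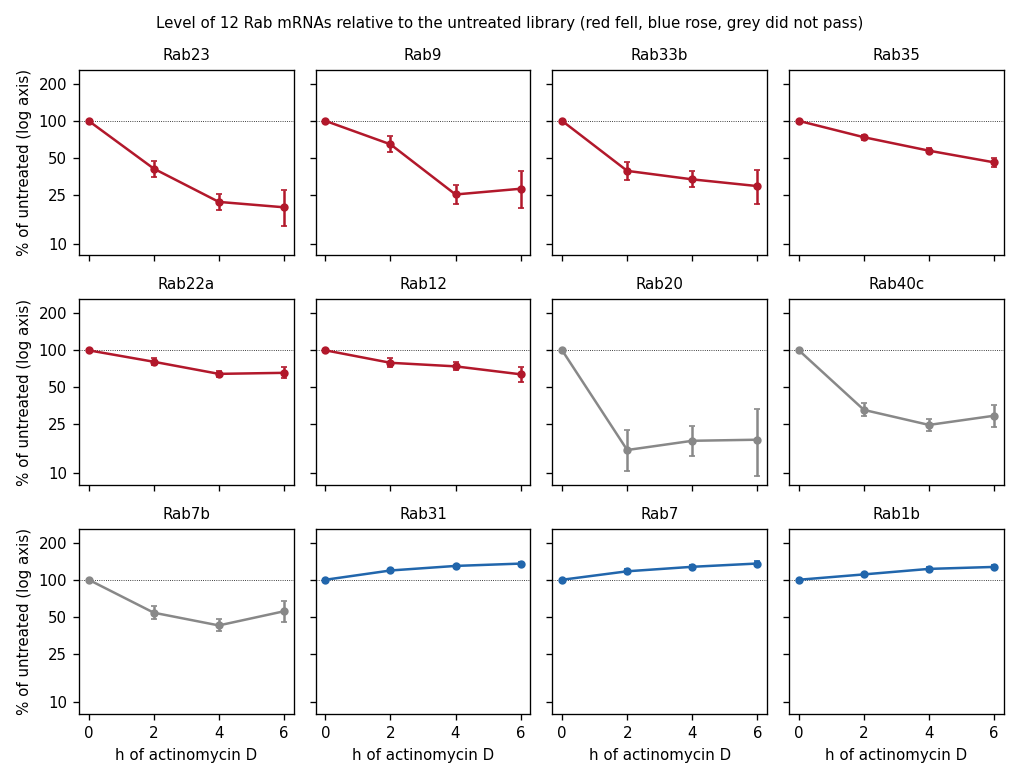
Level of 12 Rab mRNAs at 0, 2, 4 and 6 h as a percentage of the untreated library (log axis; bars are counting 95% intervals from 1 library per time). Rab23, Rab33b, Rab20 and Rab40c were below 50% by 2 h, Rab35 declined evenly to 45.9% at 6 h, and Rab31, Rab7 and Rab1b ended above 100%.

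Rabs of late endosomes and lysosomes gave 2 falls and 1 rise among 6 tested members. These were 33.3% and 16.7%, against 17.2% and 8.63% of all genes. Their median slope was −0.098, against 0.0014 over all genes. With 6 members these values cannot be read as particular to the compartment. Rab9, which carries receptors from late endosomes back to the Golgi, had 11.7, 7.54, 2.94 and 3.27 CPM. It stood at 64.4% of untreated at 2 h and 25.1% at 4 h (interval 21.1 to 29.8%), so most of its loss came after that of Rab33b or Rab20, and its slope was −0.35 ± 0.071 (edgeR adjusted p = 0.0379). Rab12, which acts in the sorting of endosomal cargo for lysosomal degradation, had 33.6, 26.6, 24.9 and 21.4 CPM (slope −0.10 ± 0.021, edgeR adjusted p = 0.0370). Its call was lost with total counts and when any 1 of the 4 libraries was left out.

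Rab7, the late endosome and phagolysosome Rab, had 163, 192, 209 and 222 CPM and rose to 136% of untreated (interval 129 to 142%; slope 0.072 ± 0.013, edgeR adjusted p = 0.0326). Rab7b, which shares the name but acts between endosomes and the Golgi, had 19.8, 10.7, 8.41 and 11.0 CPM. Its slope did not pass (edgeR adjusted p = 0.150) except as a fall without the 6 h library, and its bend did (adjusted p = 0.0018), with 53.9% of untreated at 2 h and 55.3% at 6 h. Rab29, linked to the kinase Lrrk2 at lysosomes, had 8.09, 7.82, 7.42 and 5.24 CPM, and Rab32, a Rab of lysosome-related organelles, had 27.1, 27.8, 25.5 and 25.8 CPM. Neither passed (edgeR adjusted p = 0.136 and 0.513), except as falls with the deposited divisors.

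The 3 rises, Rab1b, Rab7 and Rab31, depended on the scaling. They kept their sign with total counts but missed the test there, missed it with ribosomal protein scaling, and had slopes of −0.027, −0.015 and −0.015 with the deposited divisors, also short of the test. They also missed it without the untreated, the 2 h or the 4 h library. Without a filter on low counts Rab1b and Rab31 missed it too. All slopes are relative to the typical gene, so a value above 0 does not tell slower loss from no loss or from gain.

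Rabs of secretion and delivery to the plasma membrane gave 0 calls among 7 tested by edgeR (17.2% of all genes fell and 8.63% rose). Under an unadjusted p of 0.05 were 2 members, Rab8a and Rab26, against 47.3% of all genes. The DESeq2 Wald test called these as 1 fall and 1 rise, the rise of Rab26 being a description only. Rab8a, which acts in exocytosis and in the primary cilium, had 80.2, 80.9, 73.4 and 67.7 CPM (slope −0.044, edgeR adjusted p = 0.0882), and it passed as a fall with ribosomal protein scaling, with the deposited divisors or without the untreated library. Rab8b had 149, 157, 160 and 153 CPM, and Rab10, which acts in exocytosis, had 163, 173, 183 and 175 CPM. Rab27a, which docks secretory lysosomes and exosome-bearing vesicles, had 23.0, 25.8, 26.3 and 25.4 CPM. With TMM all 3 were lowest in the untreated library, and in the deposited normalized values all 3 were highest there. Rab8b passed as a fall with ribosomal protein scaling and with the deposited divisors, and Rab10 with the divisors.

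Rab26, a Rab of secretory granules, had the highest slope of the tested members, with 7, 60, 110 and 29 counts, or 0.230, 1.39, 1.45 and 2.37 CPM. At 6 h it stood at 1031% of untreated, with a counting interval of 442 to 2788%. The slope was 0.43, and 0.17 without the untreated library. Exons of Rab26 overlap those of Traf7 by up to 173 bases on the same strand in the annotation of the mm10 build, and Traf7 had 3374, 5534, 10502 and 1649 counts. The part of Traf7 reads in the Rab26 counts was not tested. On the opposite strand, exons of Rab24 overlap those of Prelid1 by up to 830 bases, Rab6a those of Mrpl48 by 409, Rab2b those of Tox4 by 158 and Rab10 those of Rab10os by 132. Without the strand setting of the counting, reads of these partners cannot be told apart.

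Among the remaining members, Rab23, a Rab of cilia and Hedgehog signalling, had 15.8, 6.43, 3.44 and 3.11 CPM. It had the steepest slope of the called Rab genes, −0.40 ± 0.065 (adjusted p of 0.0266 by edgeR), and kept 40.8%, 21.8% and 19.7% of untreated at 2, 4 and 6 h. Rab40c, which joins a ubiquitin ligase through a SOCS box, had 27.4, 8.95, 6.75 and 8.02 CPM. Its slope fell short of the test (edgeR adjusted p = 0.0753), though it passed as a fall with total counts, without the 2 or the 6 h library and by the DESeq2 Wald test. Its bend had the lowest adjusted p of the family (0.00047 by edgeR), with 32.7% of untreated left at 2 h and 29.3% at 6 h (interval 23.5 to 36.1%). Rab28, which acts in cilia, had 33.9, 38.4, 44.2 and 43.3 CPM. Rab23 and Rab9 kept their calls under every scaling and filter tried and lost them when the 4 h library was left out.

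Shares of counts between close paralogs compare genes inside 1 library and so do not depend on how libraries were scaled. Rab22a took 18.7%, 13.5%, 10.2% and 10.0% of the summed Rab22a and Rab31 counts at 0, 2, 4 and 6 h. Its exact binomial 95% interval was 9.16 to 10.9% at 6 h, below the 17.9 to 19.5% of the untreated library. Rab3a, a Rab of regulated secretion, took 9.30% of the counts of Rab3a, Rab3b and Rab3d untreated (7.54 to 11.3%), 1.53% at 2 h, 0.823% at 4 h and 1.44% at 6 h (0.530 to 3.11%, from 6 counts). The partner Rab3d, also a Rab of secretory granules, had 28.5, 31.2, 35.0 and 33.5 CPM.

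Rab8a took 35.0%, 34.1%, 31.4% and 30.7% of the Rab8 counts, with intervals of 29.0 to 32.5% at 6 h and 33.9 to 36.2% untreated. Rab5c took 78.9% of the Rab5 counts at 6 h and 76.3% untreated, again with intervals that did not overlap. For the pairs of Rab1, Rab2, Rab4 and Rab11 the intervals at 6 h and untreated overlapped. At 6 h, and untreated, Rab1a took 45.5% and 47.7% of the Rab1 counts, Rab2a 93.3% and 93.0% of Rab2, Rab4a 30.9% and 32.8% of Rab4, and Rab11a 57.2% and 56.3% of Rab11. A move of at least 5 percentage points was seen for Rab22a and Rab3a, which lost share, and for their partners Rab31 and Rab3d, which gained it. The sources do not say how reads shared by paralogs or pseudogenes were counted, and intervals cover counting error only.

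**Figure D3:**
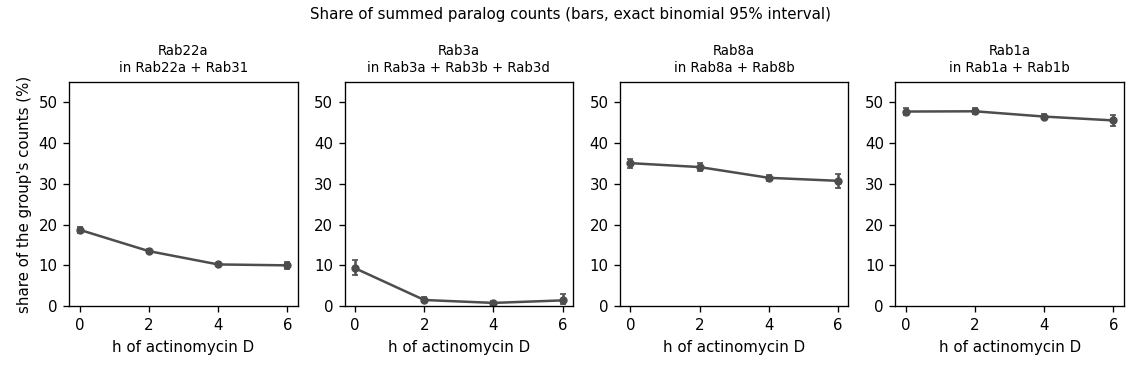
Share of a paralog in the summed counts of its group (percent) at 0, 2, 4 and 6 h, with exact binomial 95% intervals. Rab22a and Rab3a lost share mainly before 4 h, Rab8a lost 4.33 percentage points by 6 h, and the intervals of Rab1a at 6 h and untreated overlap.

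Levels per length placed members with slopes above 0 at the top of the family. In the untreated library Rab5c stood at 93.2 CPM per kb of exon, Rab1b at 86.4, Rab31 at 65.1, Rab7 at 62.6, Rab1a at 47.0 and Rab10 at 46.5. Rab35, at 37.4 CPM per kb, was the one falling gene among the 10 highest. The other falling genes, Rab12, Rab22a, Rab9, Rab33b and Rab23, stood at 11.1, 7.92, 6.69, 3.54 and 1.90 CPM per kb. Of the 8 members with a mean of at least 100 CPM, all had a slope above 0, 3 rose and 0 fell by edgeR, with 5 rising and 0 falling by the DESeq2 Wald test. The same shares among all genes of at least 100 CPM were not worked out, so these counts cannot be read as particular to Rab genes. With the deposited divisors 1 of the 39 slopes, that of Rab26, was above 0, so all 8 were below it, and with ribosomal protein scaling 8 of the 39 slopes were above 0. Across the 39 genes, slope and mean CPM had a Spearman correlation of 0.263, and across 9567 tested genes with an annotated 3′ UTR it was 0.293. Both values come from the same 4 libraries, genes are not independent replicates, and low counts make slopes noisier.

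**Figure D4:**
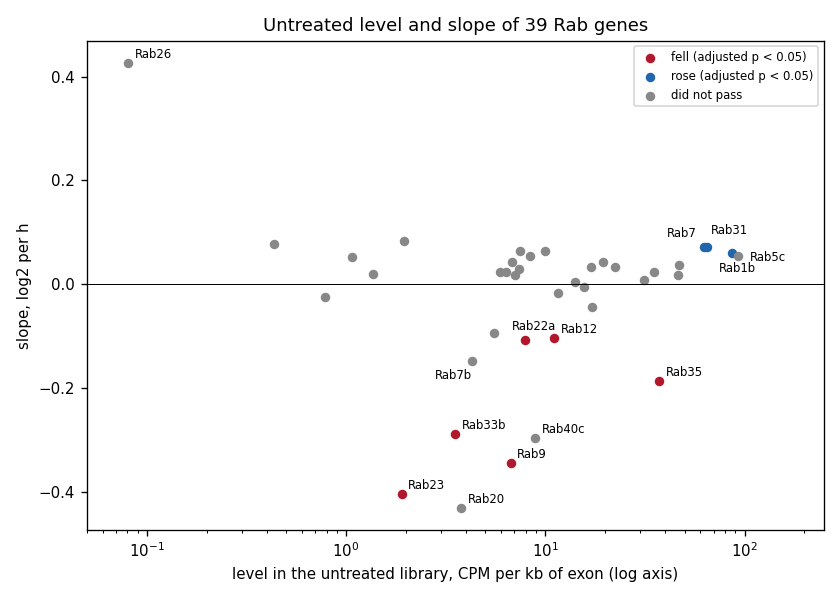
Level in the untreated library in CPM per kb of exon (log axis) against slope in log2 per h for the 39 tested Rab genes. Rab1b, Rab7, Rab31 and Rab5c sit together at the upper right, Rab35 is the falling gene with the highest level, and Rab26 lies far from the rest at the upper left.

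Half-lives in the authors' deposited table were short for the members that fell or bent upward, and for Rab20. These half-lives come from the same 4 libraries, so they restate the slopes and give no separate support. The authors' deposited table, whose normalization differs from TMM, listed 1.13 h for Rab20, 1.45 h for Rab23, 1.46 h for Rab40c, 1.71 h for Rab9 and 1.74 h for Rab33b. It listed 2.18 h for Rab7b, 3.06 h for Rab35, 3.57 h for Rab22a and 4.13 h for Rab12. For the slow members the authors' deposited table gave 20.8 h for Rab1b, 26.8 h for Rab5c, 35.4 h for Rab7, 46.9 h for Rab31 and 50.2 h for Rab34, all longer than the 6 h observed. Over the 38 tested members with a positive value the median in the authors' deposited table was 11.0 h, against 7.43 h over 9848 genes. Of those 38, 57.9% had values above 10 h, against 39.4% of all genes, and 13.2% had values under 2 h, against 10.2%. These shares leave out negative values, which 1 of 39 Rab genes and 988 of 10836 genes had. Rab26 was listed at −1.50 h in the authors' deposited table, the sign of values that increase. Rab7b had an R squared of 0.980 in the authors' deposited table although its level at 6 h lay above that at 4 h.

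Genes that run the Rab cycle gave 29 falls and 6 rises among 121 tested (24.0% and 4.96%), against 15.4% and 7.69% of the Rab genes themselves and 17.2% and 8.63% of all genes. Their median slope was −0.029, against 0.023 for the Rab genes. Of 34 exchange factors 11 fell (32.4%) and 0 rose by edgeR, with 21 at an unadjusted p under 0.05 in either direction. The DESeq2 Wald test gave 16 falls and 4 rises among them. Over all genes 47.3% had an unadjusted p under 0.05, and the DESeq2 Wald test gave 25.9% falls and 21.7% rises. The falling exchange factors included Rabgef1 (slope −0.43, edgeR adjusted p = 0.0253), Rin2 (−0.37) and Rin3 (−0.28). The abundant Sbf1 and Gapvd1 had slopes of 0.016 and −0.00083 and did not pass.

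Of 32 GTPase-activating proteins 7 fell and 2 rose by edgeR (21.9% and 6.25%, against 17.2% and 8.63% of all genes). The DESeq2 Wald test gave 8 falls and 2 rises among them, where 25.9% of all genes fell and 21.7% rose. Tbc1d25, which inactivates Rab33b in autophagy, had the steepest slope (−0.53, edgeR adjusted p = 0.0145), Tbc1d8b and Rab3gap2 rose (0.085 and 0.056), and Tbc1d16 did not pass (0.0082). Of 9 genes for GDP dissociation, escort and prenylation 0 fell and 1 rose by edgeR. At an unadjusted p under 0.05 in either direction there were 5, against 47.3% of all genes. The DESeq2 Wald test gave 1 fall and 4 rises. The escort protein Chm rose (0.098, edgeR adjusted p = 0.0440), while Gdi2, the most abundant, missed the test (0.065, edgeR adjusted p = 0.0881), as did the prenyltransferase subunit Rabggtb (−0.038, edgeR adjusted p = 0.222). Of 46 effectors 11 fell and 3 rose by edgeR (23.9% and 6.52%), with 16 falls and 8 rises by the DESeq2 Wald test. Their slopes ran from the tethering subunit Vps18 (−0.37) to Vps41 (0.094). The tether Uso1 rose (0.081), and the motor Myo5a was short of the test (0.059). Without the 4 h library 8 Rab-cycle genes fell and 0 rose by edgeR, where 351 and 25 of all 10837 genes did. With the deposited divisors 76 Rab-cycle genes fell (62.8%, against 46.5% of all genes) and 0 rose.

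Set beside other branches of the small GTPase superfamily, the Rab genes had 15.4% falls and 7.69% rises. Ras family genes had 4 falls and 1 rise among 18 tested (22.2% and 5.56%), and Arf and Arl genes had 1 and 5 among 26 (3.85% and 19.2%). All genes tested gave 17.2% falls and 8.63% rises. Median slopes were 0.023 for Rab, −0.018 for Ras and 0.057 for Arf genes. The abundant Nras and Arf3 rose (0.11 and 0.070), while Rap1b and Arf1 did not pass (0.034 and 0.050). The lowest slopes among called genes were those of Arf6 (−0.36) and Rit1 (−0.22). Arl4d had the highest slope among called genes of these families (0.45, at a mean level of 1.85 CPM). It had 0.395, 1.55, 1.81 and 3.52 CPM at 0, 2, 4 and 6 h. As with Rab26, it passed the filter through the treated libraries, so its slope is a description, though it is counted among the 5 Arf and Arl rises. With the deposited divisors 19 of the 44 tested genes of these families fell and 1 rose, where 46.5% and 0.72% of all genes did. With ribosomal protein scaling 7 fell and 1 rose, where 23.9% and 1.25% of all genes did. Differences between these lists were not tested.

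**Figure D5:**
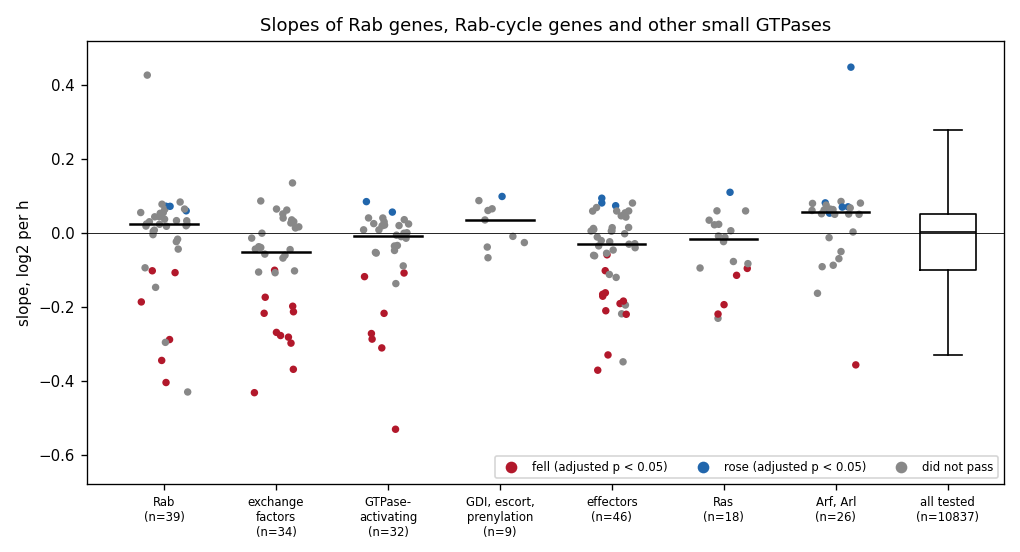
Slopes in log2 per h of the tested Rab genes, of genes of the Rab cycle and of other small GTPase families, with 1 point per gene, the median of each list as a black line, and all 10837 tested genes as a box (median and quartiles; whiskers reach the last gene within 1.5 interquartile ranges). The Rab median of 0.023 lies above that of the exchange factors, −0.051, whose 11 called genes all fell.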

How the data were processed

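RNA from RAW264.7 cells was sequenced at 0, 2, 4 and 6 h of actinomycin D, with times taken from the labels. The submitters' processing notes name STAR 2.5.3a, Subread 1.6.3, featureCounts and mm10. For the annotation release, strand setting and multi-mapping reads, the sources used here give nothing. The authors' whole-number counts per gene were analysed as they stand in the deposited table. Its normalized signal columns were the authors' counts divided by 1 number per library (1300, 2250, 4476 and 748), as recomputation showed. Its half-lives in hours (below 0 where values rose) and R squared, both treated as a score, are as deposited by the authors, who state no fitting method in these sources.

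Slopes were fitted on counts with edgeR 4.0.16 in R 4.3.3 (TMM, mean CPM of at least 1, quasi-likelihood test with 2 residual degrees of freedom, Benjamini-Hochberg adjustment over all 10837 genes, adjusted p under 0.05), and bends as a quadratic term with 1 residual degree of freedom. SE is the slope over the square root of F. With 1 library per time, p-values reflect scatter of 4 libraries about a line or curve, and no replicate spread. Levels relative to untreated used TMM-scaled CPM, with a prior count of 0.5 for the 1.5-fold counts. Ratio and share intervals are exact binomial 95% intervals and cover counting error only. DESeq2 1.42.0 served as an alternative. The fits were also run on simulated data, whose outcome is not given here. Slopes given to changed genes there were larger in size than those of Rab1b, Rab7, Rab31, Rab12, Rab22a and Rab35. Recovery of such small slopes was not tested.

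Exon lengths, coordinates (1-based) and 3′ UTRs came from GENCODE M21, on mm10. All 59 members matched by symbol. The transcript was the principal protein-coding one, the longest where several qualified. Members and lists were chosen with earlier results of these data known. Values in every library are given for members past the slope test, the 6 with the highest mean CPM, the 3 lowest and 3 highest slopes, and paralogs whose share moved by at least 5 points, and others were added after their values were seen. Of other lists, the 2 most abundant and the extreme called genes are named, and further ones were added likewise. Some genes and a gene list are not reported here, and list counts are given without them. Columns not matched to a sample numbered 0.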

Additional observations from a re-analysis of the deposited data

How the results depend on the processing

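The 4 h library was the deepest and the 6 h library the shallowest. Rab falls numbered 6 and rises 3, and leaving out 1 library gave 1 to 7 falls and 0 to 5 rises. Only Rab35 passed without the 4 h library. In the same fits Rab-cycle falls ranged from 8 to 32 and rises from 0 to 7, and Ras and Arf falls from 1 to 7 and rises from 0 to 10. Over all genes these fits gave 351 to 2242 falls and 25 to 1141 rises. With total counts, which shifted the typical gene's 6 h change by 0.17 log2 from TMM, 1 Rab gene rose (Rab26), 0 Rab-cycle genes rose, and the Ras and Arf families gave 2 falls and 1 rise. Bends there were 3 upward and 24 downward, and members more than 1.5-fold higher numbered 10, 13 and 5 at 2, 4 and 6 h. The matching shares over all genes were not worked out, so these counts cannot be read as particular to Rab genes. The deposited divisors (−0.52 log2) gave 19 Rab falls and 0 rises (46.5% of all genes fell), 76 and 0 in the Rab cycle, 19 and 1 in the Ras and Arf families, and 0 downward bends. Ribosomal protein scaling (−0.35 log2) gave 0 Rab rises, 0 in the Rab cycle, 1 in the Ras and Arf families and 0 downward bends. Without a filter there were 1 Rab rise, 2 Rab-cycle rises and 1 downward bend, which was also 1 with DESeq2 size factors or a mean CPM of at least 5. The DESeq2 Wald test gave 9 Rab falls and 10 rises, and 8 falls and 14 rises in the Ras and Arf families. In the Rab cycle it gave 41 falls and 18 rises (33.9% and 14.9%, against 25.9% and 21.7% of all genes). Falls were 66.5% of all calls over all genes, 54.4% by the DESeq2 Wald test, 76.7% without a filter, 86.7% with total counts, 95.1% with ribosomal protein scaling, 98.5% with the deposited divisors, and 66.3 to 93.4% with 1 library left out. The cause of these changes was not tested.

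Slopes above 0 numbered 25 of 39, 1 with the deposited divisors and 8 with ribosomal protein scaling. Among the members chosen for values in every library, signs changed with the deposited divisors for Rab14 (−0.083), Rab1a (−0.050), Rab1b (−0.027), Rab31 (−0.015), Rab3d (−0.044), Rab43 (−0.011), Rab4b (−0.0043), Rab5c (−0.032) and Rab7 (−0.015). Among the same members, ribosomal protein scaling changed it for Rab14 (−0.054), Rab1a (−0.021), Rab3d (−0.015) and Rab5c (−0.0027), and leaving out the untreated library for Rab14 (−0.019) and Rab20 (0.083). Leaving out each library in turn gave slopes from −0.019 to 0.021 for Rab14 and from −0.62 to 0.083 for Rab20. No paired analysis was possible because each time has 1 library.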
